A study of Mus musculus with 4 samples.

Results

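The major histocompatibility complex (MHC) class II genes and their regulators were followed in kidneys injured by ischemia-reperfusion, as a set of 10 genes among the 54078 features of the deposited table. The members were H2-Aa, H2-Ab1, H2-Eb1, H2-DMa, H2-DMb1, H2-DMb2, H2-Oa, H2-Ob, Cd74 and Ciita, matched by gene name. They had been selected on their FPKM (fragments per kilobase of gene, scaled to the size of the library), as genes lower in both KO pools than in both WT pools, so their differences between WT and KO are given here as a description without a test. In each of the 4 libraries, total kidney RNA was taken at day 3 after both kidneys had been clamped for 30 min. The 2 KO libraries came from Apela Ksp KO mice, that is Apela flox/flox mice with Ksp-Cre, in which the Ksp-cadherin promoter drives Cre in renal tubular epithelial cells. The 2 WT libraries came from Apela flox/flox Cre-/- littermates, so the floxed allele was shared by both groups and no library here came from uninjured kidney. All mice were adult males, with C57BL/6 x 129S4/SvJae as their labelled strain. Each library was a pool of 3 mice, so n = 2 counts pools per group, and since some animals died before day 3 the pools hold survivors.

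MHC class II molecules are pairs of an alpha and a beta chain that carry peptides from endocytosed proteins to the cell surface, where CD4+ T cells read them. They are made mainly by dendritic cells, B cells and macrophages, and other cells, renal tubular epithelium included, can make them after exposure to interferon-gamma. Newly made chains are held by the invariant chain, the product of Cd74, until it is cut away in the endosome and H2-DM exchanges its last fragment for a peptide, a step that H2-O inhibits. Transcription of the whole family is switched on by Ciita, a coactivator that binds no DNA itself but docks on factors bound to paired promoter elements, the X box and the Y box.

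These elements were looked for in the RefSeq promoter windows of the members (build GRCm38.p6, from 250 bases before to 50 after the gene start), because the genes are known to share them. A window was given for 7 of the 10 members and none for H2-Ab1, Cd74 and Ciita. The pair searched was CNNNNAAC, a loose form of the start of the X box, followed after 25 to 28 bases by ATTGG, the inverted CCAAT of the Y box, with both parts in the same orientation. The motif pair and its spacing were set after the members' windows had been read, so its presence there is a description. It was found in the sense orientation in 6 of the 7 members, H2-Aa, H2-Eb1, H2-DMb1, H2-DMb2, H2-Oa and H2-Ob. Among all 32851 windows, 0.244% held it in the sense orientation and 0.591% on either strand, whereas ATTGG by itself was in 37.4% of windows on either strand. The windows of H2-DMa lie at 2 RefSeq starts upstream of the start that the deposited table gives for the gene, and these letters were not in them. The window of H2-DMb2, from 34144999 to 34145298, lies inside the gene as the deposited table gives it, which starts at 34143307. The stretches below run 5' to 3' along the gene, with the 2 motifs in capitals. They are shown for the similar spacing in a classical alpha chain, a classical beta chain, both H2-O chains and the pair of DM beta paralogs. H2-Eb2, a class II gene that is not a member, is shown beside them. For H2-DMb1 and H2-Oa, whose stretches overlap annotated exons, 30 bases from the first motif are given, which end before the ATTGG.
H2-Aa, chr17:34287859-34287915, minus strand: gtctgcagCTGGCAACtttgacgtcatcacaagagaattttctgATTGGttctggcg
H2-Eb1, chr17:34305765-34305820, plus strand: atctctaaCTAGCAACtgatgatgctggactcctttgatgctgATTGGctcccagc
H2-DMb1, chr17:34153094-34153123, plus strand: CTAGTAACtgatgatgctaggctgattcac
H2-DMb2, chr17:34145115-34145171, plus strand: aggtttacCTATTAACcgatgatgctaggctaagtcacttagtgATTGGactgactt
H2-Oa, chr17:34092300-34092329, plus strand: CCAGCAACaaacccattatctcagagaact
H2-Ob, chr17:34238807-34238860, plus strand: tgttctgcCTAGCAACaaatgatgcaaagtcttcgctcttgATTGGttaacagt
H2-Eb2, chr17:34325532-34325587, plus strand: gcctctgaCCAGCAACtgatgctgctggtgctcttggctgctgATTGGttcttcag

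The first motif began between 79 bases (H2-Oa) and 126 bases (H2-DMb2) before the RefSeq start of the members, and 135 bases before that of H2-Eb2. The gap between the motifs was 28 bases in H2-Aa, H2-DMb1, H2-DMb2 and H2-Oa, 27 bases in H2-Eb1 and 25 bases in H2-Ob.

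**Figure D1:**
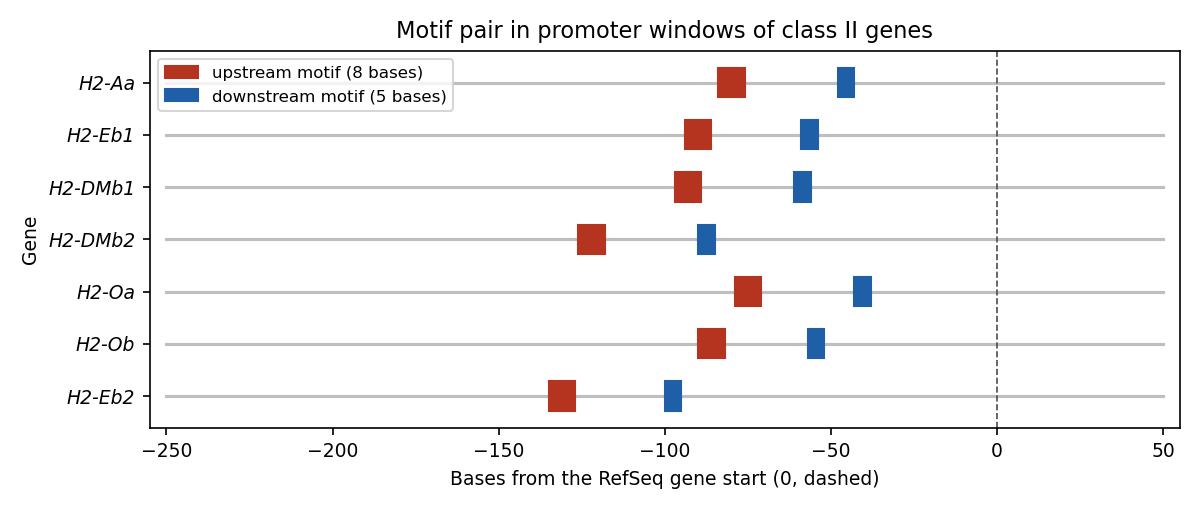
Position of the motif pair in the promoter windows of 6 members and of H2-Eb2, in bases from the RefSeq gene start. Red boxes are the upstream motif of 8 bases and blue boxes the downstream motif of 5 bases, and the upstream box begins between 79 and 135 bases before the start in every gene drawn.

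The libraries were of like depth, with between 16045724 and 16927742 reads on genes. These were recovered from FPKM and gene length, which gave whole reads within 0.01 for 100% of nonzero values. The targeted gene Apela was at 5.27 and 4.57 FPKM in WT and at 0.536 and 0.245 in KO. Kidney tubule markers were high in every pool (summed FPKM of 9 genes from 2245 to 2965), and the 5 adipose markers had a summed FPKM of at most 0.405. The series text names adipose tissue, while its title and labels name kidney. The 15414 genes whose FPKM averaged 0.5 or more over the pools were tested between KO and WT on log2(FPKM + 0.5) with limma. After Benjamini-Hochberg adjustment 0 genes were under 0.05, while 974 (6.32%) had an unadjusted p under that value. The counts of 0 given below for single gene lists follow from this and are not results about those lists. Whether the 2 pools of a group are separate experiments is not given in the labels, so p-values measure only the spread between these pools.

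The 10 members together held 7530 reads (0.0462% of the reads on genes) in WT replicate 1 and 15709 (0.0979%) in WT replicate 2, against 2956 (0.0175%) in KO replicate 1 and 2202 (0.0131%) in KO replicate 2. Both KO pools lay below both WT pools in 9 of the 10 members, a count the choice of members fixes. The same held for 18.1% of all genes tested, which do not include H2-Oa and H2-Ob, and for 8.29% of all 54078 features. The latter share counts features without reads in any pool, for which it cannot hold. In 19.7% of the genes tested both KO pools lay above both WT pools. The exception among the members was H2-Ob, which goes against the stated reason for its choice. The median log2 fold change of the 10, on the scale of log2(FPKM + 0.5), was -1.81, from -2.23 for Cd74 to -0.24 for H2-Ob and H2-Oa, while the median over all genes tested was 0.0071. In bulk RNA, fewer class II expressing cells and less class II RNA per cell cannot be told apart.

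**Figure D2:**
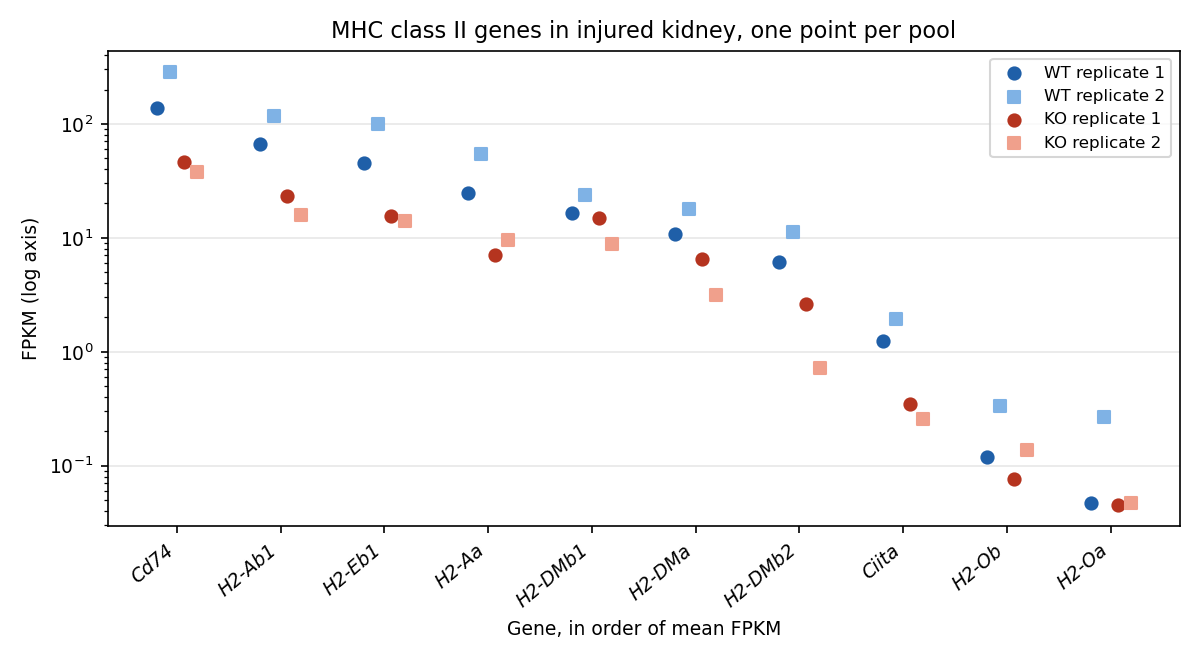
FPKM of each member in each pool on a log axis, with genes in order of mean FPKM and 1 point per pool (blue, WT; red, KO; circles, replicate 1; squares, replicate 2). WT replicate 2 is the highest point for every gene, and the pools of the 2 groups separate except for H2-Ob, with H2-DMb1 and H2-Oa close to touching.

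Of the chains that present peptide, H2-Ab1 (ENSMUSG00000073421, plus strand of chromosome 17, 34263209 to 34269418 of GRCm38), the beta chain of I-A, was the most abundant. Its FPKM was 65.9 and 116 in WT and 23.3 and 15.8 in KO, with means of 91.2 ± 35.8 (SD, n = 2) and 19.6 ± 5.33 (SD, n = 2). The lower WT pool was 2.82-fold above the higher KO pool. H2-Aa (ENSMUSG00000036594, minus strand of chromosome 17, 34282744 to 34287827), the alpha chain that pairs with it, had an FPKM of 24.9 and 54.5 in WT and 7.02 and 9.63 in KO. Unlike for H2-Ab1, KO replicate 2 was the higher of the KO pools, and its WT mean was 4.77-fold its KO mean. H2-Eb1 (ENSMUSG00000060586, plus strand of chromosome 17, 34305877 to 34316199), the beta chain of I-E, had an FPKM of 45.0 and 99.1 in WT and 15.7 and 13.9 in KO. The mean in KO was 20.5% of that in WT, beside 21.5% for H2-Ab1 and 20.9% for H2-Aa.

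By FPKM H2-Eb1 lay between H2-Ab1 and H2-Aa, but this order depends on gene length. The table divides H2-Aa by 1874 bases and H2-Eb1 by 1184, while their longest coding transcripts in GENCODE M21 have 1128 and 1669 bases. Reads per kilobase of those transcripts, a scale added after the values were seen, put H2-Aa above H2-Eb1 in all 4 pools and left H2-Ab1 the highest of the 3 chains. The gene of the alpha partner of H2-Eb1, annotated as the pseudogene H2-Ea-ps, had 0 reads in all 4 libraries, which with a limit of 3 reads allows an FPKM of up to between 0.254 and 0.272. Without an alpha chain the I-E molecule does not reach the cell surface, as is known of mouse strains with this defect. H2-Eb2, a beta chain gene next to H2-Eb1 with the same promoter motif pair, had 1 and 4 reads in WT and 0 and 1 in KO, so it was at the limit of detection in 3 of the 4 libraries.

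Cd74 (ENSMUSG00000024610, plus strand of chromosome 18, 60803848 to 60812646), the invariant chain, was the most abundant member and lies outside the MHC. Its FPKM was 139 and 283 in WT and 46.6 and 37.5 in KO, or 211 ± 102 (SD, n = 2) and 42.1 ± 6.48 (SD, n = 2). The WT mean was 5.01-fold the KO mean, beside 4.66- to 4.87-fold for the 3 chains. Cd74 stood to H2-Ab1 in an FPKM ratio of 2.10 and 2.43 in WT and 2.00 and 2.37 in KO, so the ratio overlapped between the groups. The same was seen for H2-Eb1 to H2-Ab1, with 0.683 and 0.851 in WT and 0.671 and 0.882 in KO. The ratio of H2-Aa to H2-Ab1 was 0.378 and 0.468 in WT and 0.301 and 0.609 in KO, a wider spread between the KO pools than between the WT pools and one that enclosed them.

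Ciita (ENSMUSG00000022504, plus strand of chromosome 16, 10480059 to 10528418), the transactivator, was expressed at a low level. Its FPKM was 1.24 and 1.94 in WT and 0.345 and 0.258 in KO. These rest on 190 and 319 reads in WT and 55 and 40 in KO. The gap from the lower WT pool to the higher KO pool was the widest of all members as a ratio. The mean in KO was 18.9% of that in WT, a 5.28-fold difference in FPKM, whereas its log2 fold change of -1.37 is drawn toward 0 by the pseudocount of 0.5. The FPKM divides by 9535 bases of gene, while the longest coding transcript in GENCODE M21 has 6007 bases, so the level may be understated in all pools alike. H2-Ab1 stood to Ciita in an FPKM ratio of 53.2 and 59.9 in WT and 67.7 and 61.2 in KO, where the KO pools were slightly above the WT pools.

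The genes of the peptide exchange factor H2-DM differed from one another. H2-DMa (ENSMUSG00000037649, plus strand of chromosome 17, 34135182 to 34139101), its alpha chain, had an FPKM of 10.8 and 18.0 in WT and 6.48 and 3.15 in KO. H2-DMb1 (ENSMUSG00000079547, from 34153072 to 34160230 on the same strand), the more abundant of the beta chains, had an FPKM of 16.4 and 23.9 in WT and 15.1 and 8.75 in KO. Its lower WT pool was 1.09-fold above its higher KO pool, the closest approach among the 8 members tested, and its log2 fold change of -0.76 was the smallest of them. H2-DMb2 (ENSMUSG00000037548, from 34143307 to 34151553 on the plus strand), the other beta chain, had an FPKM of 6.19 and 11.3 in WT and 2.62 and 0.720 in KO. The KO pools differed from each other by 3.64-fold in this gene, on 75 and 20 reads, more than in any other member.

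The share of H2-DMb2 in the summed FPKM of both DM beta genes was 27.4% and 32.1% in WT and 14.8% and 7.61% in KO. The groups did not overlap in this share, and the difference was not tested because it comes from the contrast that chose the genes. The paralogs are alike in sequence. When the longest H2-DMb2 transcript of GENCODE M21 was cut into its 1459 overlapping 25-base pieces, 38.7% of them occurred in an H2-DMb1 transcript. With pieces of 100 bases 12.9% did, and with pieces of 150 bases 5.40%. Reads from such stretches could have been assigned to either gene or left out, and how the authors' counting treated them is not given in the sources used here. The split between both genes is therefore uncertain, and so is their sum if such reads were left out. H2-DMa stood to that sum in a ratio of 0.480 and 0.511 in WT and 0.367 and 0.333 in KO.

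**Figure D3:**
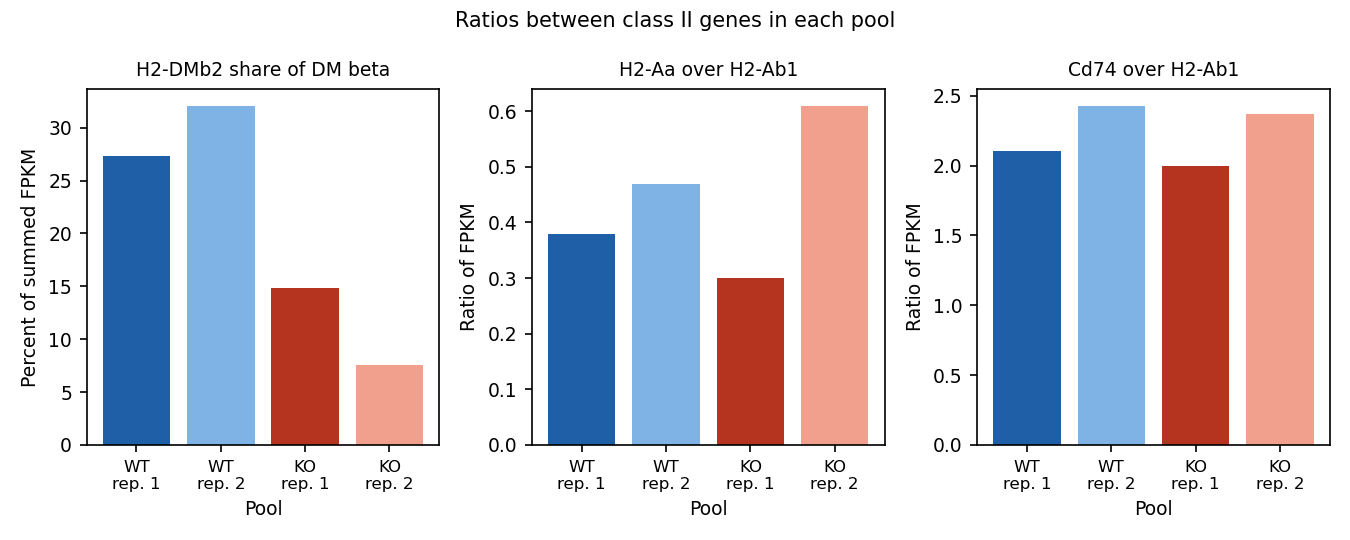
FPKM ratios between members in each of the 4 pools: the percentage of summed DM beta FPKM that came from H2-DMb2 (left), H2-Aa over H2-Ab1 (middle) and Cd74 over H2-Ab1 (right), with axes from 0 and 1 bar per pool. The H2-DMb2 share is 27.4% and 32.1% in WT and 14.8% and 7.61% in KO, while the other 2 ratios overlap between the groups.

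The inhibitory chains H2-Oa and H2-Ob were at the edge of detection. H2-Ob (ENSMUSG00000041538, plus strand of chromosome 17, 34238903 to 34245907) had 6 and 18 reads in WT and 4 and 7 in KO, or an FPKM of 0.118 and 0.332 against 0.0758 and 0.137. KO replicate 2 was above WT replicate 1, so the groups overlapped. H2-Oa (ENSMUSG00000024334, plus strand of chromosome 17, 34092340 to 34095234) had 1 and 6 reads in the WT pools and 1 read in each KO pool. Its FPKM in WT replicate 1, 0.0474, lay above the 0.0469 and 0.0455 of the KO pools only through the scaling of 1 read. Both genes are known for expression in B cells and some dendritic cells, and both were under the filter of a mean FPKM of 0.5, so 8 of the 10 members were in the fit. H2-DMb1 and H2-Oa were the members just inside the stated rule, and H2-Ob lay just outside it.

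The pools of 1 group also differed from each other. All 10 members were higher in WT replicate 2 than in WT replicate 1, by 1.46-fold for H2-DMb1 to 5.61-fold for H2-Oa with a median of 1.93-fold, while 49.2% of all genes tested were higher in WT replicate 2. In that pool 9 of 10 macrophage markers were also higher than in WT replicate 1, and 0 of 9 kidney tubule markers were, and their part in the spread of the members was not tested. Without WT replicate 2 the median log2 fold change of the 10 members was -1.36, and the values ran from -1.78 for H2-DMb2 to -0.0031 for H2-Oa. Without WT replicate 1 the median was -2.22. With each pool left out in turn, Cd74, H2-Ab1, H2-Eb1, H2-Aa and H2-DMb2 lay between -2.86 and -1.51, whereas H2-DMb1 ran from -1.14 (KO replicate 1 left out) to -0.39 (KO replicate 2 left out).

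**Figure D4:**
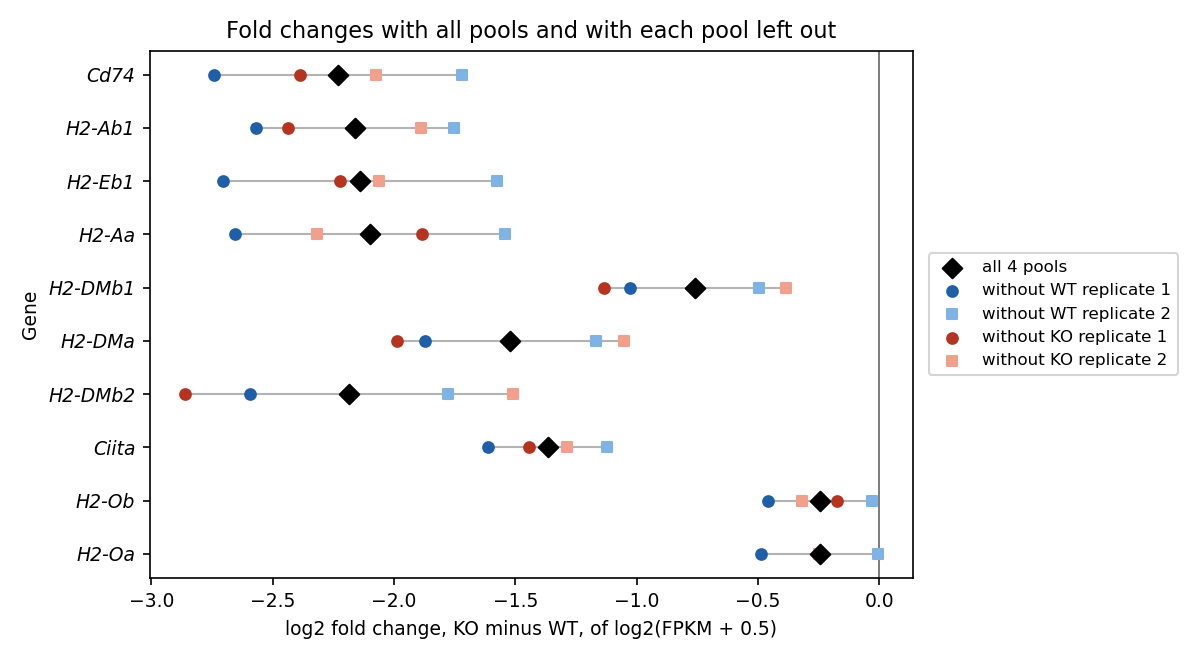
Log2 fold change (KO minus WT, of log2(FPKM + 0.5)) of each member with all 4 pools (black diamonds) and with 1 pool left out (coloured points), joined by a grey line. Leaving out WT replicate 2 moves every member toward 0, and the points of H2-Oa and H2-Ob for that setting lie close to 0.

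Markers of the cells that carry class II were read in the same pools. Of 10 macrophage genes, all tested, 8 had a negative log2 fold change. In 3 both KO pools lay below both WT pools, against 18.1% of all genes tested. As in the whole fit, 0 of the 10 macrophage genes had an adjusted p-value under 0.05. Their summed FPKM was 144 and 315 in WT and 154 and 128 in KO, so that WT replicate 1 lay between the KO pools. Their median log2 fold change was -0.71 with all pools, -0.017 without WT replicate 2 and -1.36 without WT replicate 1. Adgre1, which encodes F4/80, showed the pattern with an FPKM of 3.09 and 11.2 in WT and 3.89 and 2.43 in KO. C1qb and C1qc, complement chains made by tissue macrophages, and Cx3cr1, the fractalkine receptor, were the 3 genes without overlap.

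The summed FPKM of H2-Aa, H2-Ab1 and H2-Eb1 was 136 and 270.1 in WT and 46.0 and 39.4 in KO. Set against the macrophage sum it gave 0.942 and 0.859 in WT and 0.298 and 0.308 in KO. Against Ptprc, which encodes the leukocyte antigen CD45 and had an FPKM of 0.754 and 1.85 in WT and 0.751 and 0.548 in KO, it gave 180.1 and 146 in WT and 61.3 and 71.8 in KO. Both ratios were lower in KO than in WT without overlap, but the 3 chains in them belong to genes chosen for being lower in KO, so this separation is a description and follows largely from that choice. The part of macrophage number in the class II difference was not tested. Of the 9 kidney tubule markers, all tested, 6 had a negative log2 fold change with a median of -0.10, 4 had both KO pools below both WT pools, against 18.1% of all genes tested, and 0 had an adjusted p-value under 0.05. These 4 were Slc34a1 (-0.74), a phosphate transporter, Slc5a2 (-0.65), a glucose transporter, and Lrp2 (-0.38), the endocytic receptor megalin, all of the proximal tubule, and Cdh16 (-0.11), which encodes Ksp-cadherin. Their part in the class II difference was not tested.

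Dendritic cell markers were scarce. Of 9 genes, 3 passed the filter (Zbtb46, Itgax and Batf3), all with a negative log2 fold change, 1 of them (Batf3) without overlap, against 18.1% of all genes tested, and 0 genes at an adjusted p-value under 0.05. The summed FPKM of the 9 was 4.26 and 6.36 in WT and 3.99 and 3.55 in KO. Zbtb46, a transcription factor of classical dendritic cells that endothelium also expresses, had an FPKM of 1.34 and 1.67 in WT and 1.38 and 1.32 in KO, with WT replicate 1 between the KO pools. Of the defining markers, Xcr1 had 0 reads in 3 libraries and 1 in KO replicate 2, and Flt3 had at most 5 reads. Class II chains stood to the dendritic cell sum in a ratio of 31.9 and 42.5 in WT and 11.5 and 11.1 in KO. This separation, too, follows largely from the choice of the chains as genes lower in KO. The part of dendritic cells in the difference was not tested.

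B cell markers lay lower still, with 1 of 7 genes past the filter. That gene, Cd79b, a chain of the B cell receptor complex, had an FPKM of 0.739 and 0.772 in WT and 0.585 and 0.646 in KO. Ms4a1 and Pax5 had 0 reads in both KO pools and at most 4 in a WT pool. The summed FPKM of the 7 genes was 1.07 and 1.65 in WT and 0.892 and 0.731 in KO. Their part in the class II difference was not tested. The monocyte genes had a summed FPKM of 34.3 and 49.7 in WT and 38.9 and 46.2 in KO, which overlapped, with 3 of 4 genes tested and 0 under an adjusted p of 0.05. Of those tested 2 had a negative log2 fold change, Plac8 (-0.58) and Ccr2 (-0.55), the chemokine receptor of inflammatory monocytes. Chil3, a chitinase-like protein of myeloid cells, had 1.00 and made up 30.7 of the summed 46.2 FPKM in KO replicate 2. The median of the 3 was -0.55, and 0.12 without WT replicate 2. The T cell genes summed to 0.967 and 2.25 in WT and 1.11 and 0.687 in KO. Of the 6 genes 1, Trac, was tested, with 0 under an adjusted p of 0.05, and its pools overlapped. Under the filter, Cd4, Cd8a, Cd3d and Cd3g had both KO pools below both WT pools, as did 8.29% of all 54078 features. That share counts features without reads in any pool, which cannot meet this condition. Cd3e, with reads in WT replicate 2 alone, did not meet it. These rest on few reads, for Cd4 14 and 33 in WT and 9 and 8 in KO.

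**Figure D5:**
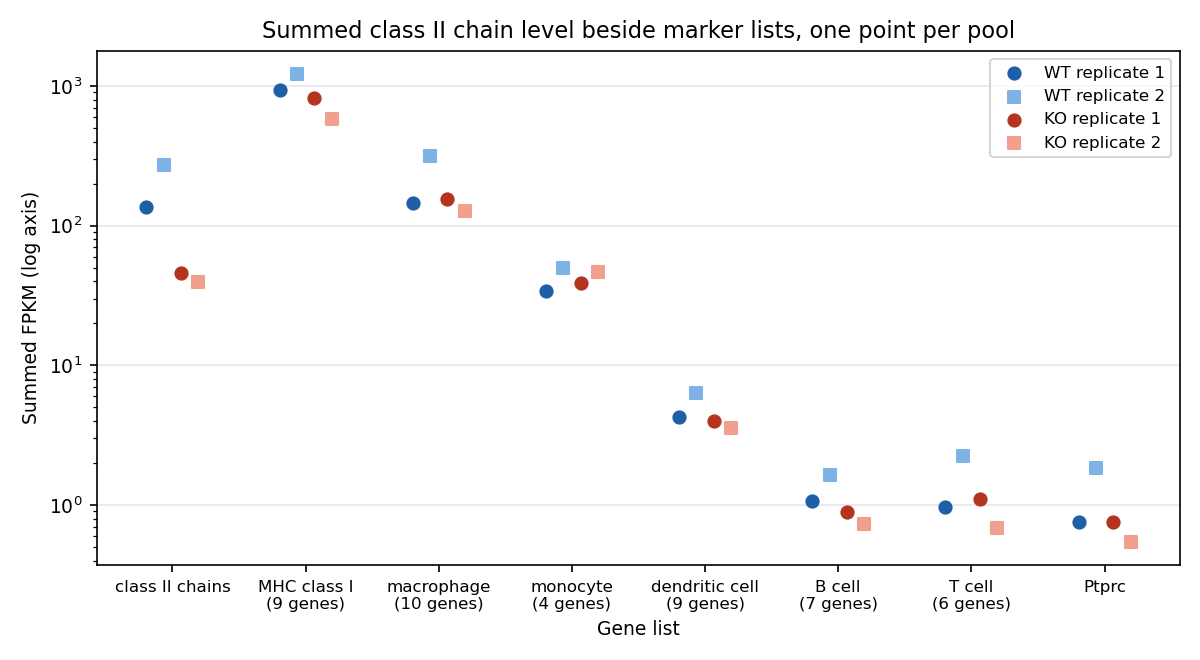
Summed FPKM on a log axis of the class II chains (H2-Aa, H2-Ab1, H2-Eb1), of MHC class I genes and of marker lists in each pool, with 1 point per pool. For the class II chains both KO points lie under both WT points (46.0 and 39.4 against 136 and 270.1), while for macrophages the WT replicate 1 point (144) lies between the KO points (154 and 128).

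The genes of the factors on which Ciita docks were read next. Of the RFX, NF-Y and CREB genes, 6 of 7 were tested, all 6 had a negative log2 fold change with a median of -0.075, 1 (Creb1) had both KO pools below both WT pools, against 18.1% of all genes tested, and 0 had an adjusted p-value under 0.05. Rfx5, the large subunit of the RFX complex that binds the X box, had an FPKM of 3.55 and 3.91 in WT and 4.36 and 2.72 in KO. The KO pools lay on either side of the WT pools, and the log2 fold change was -0.10 with a standard error of 0.23, and its limma adjusted p was 0.951.

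Of 10 genes on the path from interferon-gamma to Ciita, 9 were tested and 7 had a negative log2 fold change. In 5 both KO pools lay below both WT pools, against 18.1% of all genes tested, and 0 had an adjusted p-value under 0.05. Irf1, which binds an interferon-responsive Ciita promoter, had an FPKM of 8.95 and 13.4 in WT and 6.34 and 4.89 in KO, a log2 fold change of -0.92 with a standard error of 0.24 and a limma adjusted p of 0.757. Its pools did not overlap between the groups, and the smallest limma adjusted p of any gene tested was 0.466. The receptor chain Ifngr1 was at 29.0 and 32.5 in WT and 41.7 and 31.7 in KO, which overlapped. Ifng itself had 1 read in WT replicate 1 and 0 in the other libraries, which allows an FPKM of up to 0.135 to 0.143 in those.

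Among the endosomal enzymes that cut the invariant chain and antigens, 6 of 7 genes were tested, 5 had a negative log2 fold change, 2 had both KO pools below both WT pools, against 18.1% of all genes tested, and 0 had an adjusted p-value under 0.05, with a median of -0.069. Ctss, cathepsin S, which removes most of the invariant chain in dendritic cells and B cells, had an FPKM of 23.7 and 54.1 in WT and 22.8 and 22.0 in KO. WT replicate 1 was near the KO pools and WT replicate 2 stood apart, unlike the class II chains. Ctsl, cathepsin L, which does this in thymic epithelium, was at 97.3 and 91.7 in WT and 90.1 and 95.2 in KO, and the groups overlapped. Of the genes that set the turnover of surface class II, Cd83, which keeps it at the surface by opposing the ubiquitin ligase of the gene March1, had an FPKM of 0.847 and 1.88 in WT and 0.511 and 0.431 in KO. March1 was at 0.731 and 1.11 in WT and 0.669 and 0.724 in KO. Cd9, a tetraspanin and the other gene of this list in the table, was at 43.8 and 53.3 in WT and 56.8 and 47.7 in KO, which overlapped. Of the 3 genes, 2 had a negative log2 fold change, the same 2 had both KO pools below both WT pools, against 18.1% of all genes tested, and 0 had an adjusted p-value under 0.05. Of the 3 costimulation genes listed, 2 were tested and 0 had an adjusted p-value under 0.05. Cd40, which receives help from T cells, was at 0.913 and 1.74 in WT and 0.755 and 0.796 in KO, and Cd86, a ligand of CD28, was at 0.476 and 1.30 in WT and 0.229 and 0.370 in KO.

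The 8 members on chromosome 17 lie from H2-Oa to H2-Eb1, interleaved with other genes. Between 34092340 and 34340229, the end of H2-Eb2, the table holds 19 features, of which 11 were tested and 5 of these are not class II genes. In all 5, Brd2, Psmb9, Tap1, Psmb8 and Tap2, both KO pools lay below both WT pools, against 18.1% of all genes tested, with log2 fold changes from -0.92 to -0.10. Tap1, a subunit of the transporter that loads MHC class I, had a log2 fold change of -0.92, between those of H2-DMb1 (-0.76) and H2-DMa (-1.52), and an FPKM of 6.42 and 8.49 in WT and 3.996 and 3.34 in KO. Brd2, a bromodomain protein between H2-Oa and H2-DMa, was at 27.4 and 29.5 in WT and 25.8 and 27.3 in KO, nearly level. Of the 9 listed MHC class I genes, which include Psmb8, Psmb9, Tap1 and Tap2, in all 9 both KO pools lay below both WT pools, against 18.1% of all genes tested, and the median of their log2 fold changes was -0.74, with 0 genes at an adjusted p-value under 0.05. H2-Ab1 stood to B2m, the light chain of class I, in an FPKM ratio of 0.134 and 0.183 in WT and 0.0561 and 0.0581 in KO. Since H2-Ab1 was chosen for being lower in KO, this ratio is a description.

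Among 13396 other genes averaging an FPKM of 1 or more, the 10 with profiles over the 4 pools most like the mean of the 7 members at that level were, in order, Il1f6, Ighm, Cfi, C4b, Ccl5, Gbp2, Ubd, Mir6941, Ly86 and Lst1. Of these, Mir6941 is a short microRNA gene whose FPKM, 1.05 and 2.96 in WT and 0 in both KO pools, rests on few reads. Likeness was the mean absolute distance of log2 values centred on each gene's mean, which was 0.12 for Il1f6 and 0.23 for Lst1, against a median of 0.94 over the genes ranked. The members themselves lay between 0.14 (H2-Ab1) and 0.56 (H2-DMb1), and H2-DMb1, H2-Aa (0.30) and H2-DMb2 (0.29) were farther from the set's mean than all 10 of these genes. Il1f6, an interleukin-36 cytokine of epithelia, had an FPKM of 4.65 and 8.16 in WT and 2.23 and 1.05 in KO. Ighm, the heavy chain of IgM, had 3.07 and 7.30 in WT and 1.24 and 1.04 in KO. With 4 pools the ranking is a description.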

How the data were processed

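RNA-sequencing of poly-A selected kidney RNA was analysed for 2 WT and 2 KO pools, from mice given as C57BL/6 in the study's methods and as a cross with 129S4/SvJae in the labels. The authors deposited a table of FPKM for every gene in each library, beside positions and lengths of the genes. The submitters' processing notes name HISAT2 2.0.5 and the builds mm10 and GRCm38.p6, while the counting tool, the annotation and the strand setting are not given in the sources used here. Of 53620 genes shared with GENCODE M21, 97.1% had identical coordinates, as did 3 of the 10 members, and positions are those of the deposited table. Replicate pools differed by more than counting noise: the chi-square of recovered reads, divided by the number of genes, was 34.6 within WT and 26.9 within KO.

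On log2(FPKM + 0.5), KO was compared with WT by limma (version 3.58.1, R 4.3.3, trended eBayes). The 15414 genes averaging an FPKM of 0.5 or more entered, no covariate was used, and two-sided p-values were adjusted over all of them by Benjamini-Hochberg. FPKM are not counts, so count tests were not used, and recovered reads served for depth, limits of detection and voom weights. The pseudocount makes the fold changes of low genes too small. Other computations used Python 3.11.15 with pandas 2.3.3 and scipy 1.17.1. The fit was tested on simulated data.

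The members and the gene lists were chosen with earlier results of these data known. The text names all members, the other class II genes, listed genes that bear on the members, defining markers, and the 10 genes of most like profile. The values of some listed genes are not reported here. The table's remaining columns describe genes. Alternatives were pseudocounts of 0.1 and 1, quantile normalization, no filter, a stricter filter at an average FPKM of 1, no trend, voom weights, the replicate block, an unadjusted p and each pool left out in turn. The limma test with a pool left out was chosen after seeing the data, and takes the pool left alone to vary like the other group.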

Additional observations from a re-analysis of the deposited data

How the results depend on the processing

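The number of genes with an adjusted p-value under 0.05 was 0 in the main setting and under every alternative run except no filter on low values, where it was 218. Counting by an unadjusted p instead gave 974. The adjusted count was 0 with each pool left out. Genes with both KO pools below both WT pools numbered 2791 (18.1% of those tested), 4482 (8.29%) without a filter and 4926 to 5540 with each pool left out, where fewer pools overlap less often. The median log2 fold change of the 10 members was -1.81, -2.17 with voom weights, and -2.22 to -1.36 with each pool left out. All 90 values of single members under the alternatives were negative. Of these, 7 moved by more than the spread between replicates, all of H2-Oa, H2-Ob and Ciita. Ciita lay between -2.37 (voom weights) and -0.98 (pseudocount of 1). With voom weights H2-Oa went from -0.24 to -1.06 and H2-Ob from -0.24 to -0.92. The median of the class II surface turnover genes became 0.10 under the stricter filter, which leaves out Cd83 and March1. That of the monocyte genes ran from -0.85 to 0.12 with each pool left out, the latter without WT replicate 2. For T cells, the 1 gene tested had 0.065, which ran from -0.45 to 0.58 with each pool left out, and the list's median was -0.30 without a filter. The endosomal median went from -0.069 to -0.15 under quantile normalization, that of the docking factors from -0.075 to -0.029 without WT replicate 1, and that of the tubule markers from -0.10 to -0.23 without WT replicate 2. The causes were not tested.

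The labels do not say that pools with the same number share an animal, day or batch, and pools that carry 1 number deviated from the means of WT and KO with a correlation of -0.0017 across genes. Adding the replicate block to the fit left 0 genes with an adjusted p under 0.05 and 932 with an unadjusted one, and the members' median stayed at -1.81 by construction. Depth limits H2-Oa, H2-Ob and the B cell markers, which rest on few reads.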
